A study of Mus musculus with 4 samples.

Results

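Histone genes encode the proteins around which DNA is wound, and 67 of the 32285 features counted in this study of mouse pancreatic ductal adenocarcinoma carry a symbol that starts with Hist1h, Hist2h, Hist3h or Hist4h. They were taken by symbol alone and comprise 6 genes of the linker histone H1, 18 of H2A, 18 of H2B, 12 of H3 and 13 of H4. Their levels were described as UMIs (counted RNA molecules) scaled to the total UMIs of a cell class, on the usual CPM scale, in T cells, NK cells, macrophages, tumour cells high in vimentin (Vim-high) and tumour cells high in keratin 19 (Krt19-high). Each class was also split into cells with at least 1 UMI of Mki67 or Top2a, 2 genes used in dividing cells, and cells with neither. The group was chosen by its measured CPM in these classes and libraries, so the differences below are descriptions and no test of them is given.

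Single-cell RNA was counted in 4 droplet libraries, 1 per group. The GPH library came from mice given gemcitabine, paricalcitol and hydroxychloroquine, and its group was read from the title, since the treatment label is cut short once it has given gemcitabine (60 mg per kg, into the peritoneum). The G library came from mice given gemcitabine, which is built into DNA in place of deoxycytidine and halts its copying. The PH library came from mice given paricalcitol, an activator of the vitamin D receptor, with hydroxychloroquine, which blocks the last step of autophagy. The control library came from mice given PBS. Each library pooled tumour tissue of 3 animals. The strain, the age and the tumour model are not given in the sources used here, and effects of the drugs, the animals and the library cannot be told apart.

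Most histone genes are replication-dependent: their mRNA is made in S phase, when new DNA has to be packed, and is broken down when DNA synthesis stops. These mRNAs carry no intron and, alone among animal mRNAs, usually end in a short stem-loop in place of a poly(A) tail. The stem-loop binding protein SLBP holds that end, and the factor NPAT switches on transcription of the clusters. Droplet libraries of this kind prime on poly(A), so a histone mRNA is caught mainly where it has a tail or an A-rich stretch, and its UMIs report captured RNA and not the whole pool. A few histone genes, among them Hist1h1c, Hist1h2bc, Hist2h2be, Hist3h2a and Hist4h4, are also known to give polyadenylated mRNA in cells that do not divide.

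The stem-loop was searched in the protein-coding GENCODE vM21 transcripts of each gene (mm10) as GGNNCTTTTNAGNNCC on the transcript strand. It was found in 44 of the 67 genes and in 28 of 21834 other protein-coding genes (0.128%). The 3 genes below are abundant members with different ends. The annotated transcript of Hist1h2ap stops 3 bases after the hairpin, and that of Hist1h3c runs 74 bases on. The transcript of Hist1h1c runs 840 bases on to a distant end. Capitals mark the hairpin with its loop.
Hist1h2ap: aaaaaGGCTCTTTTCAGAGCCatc
Hist1h3c: aaaaaGGCTCTTTTAAGAGCCaccta
Hist1h1c: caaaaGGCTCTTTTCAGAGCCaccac
Hist1h2ap is an H2A gene at chr13:21833026-21833507 (minus strand), and Hist1h1c is a linker histone gene at chr13:23738808-23740367 (plus strand). The form shared by Hist1h2ap and Hist1h1c stood in 26 members, and the form of Hist1h3c in 6. In 22 members the transcript ended within 100 bases of the hairpin, in 22 it ran on for longer, and in 23 no match was found. Of those 23, 13 have annotated transcripts of at most 420 bases, close to a bare coding sequence, so a missing match may be a missing annotation. No match was found in Hist1h2bc (H2B, chr13:23684199-23692908, plus strand) or Hist1h1b (H1, chr13:21779883-21780625, minus strand).

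The genes lie in few places. On mm10, 54 members lie on chromosome 13 between 21715763 and 23934851, 10 on chromosome 3 between 96219865 and 96270132, 2 on chromosome 11 and 1 on chromosome 6. A promoter of RefSeq (GRCm38.p6) was matched for 61 members, and the 120 bases before the start were searched on both strands. The letters CCAAT stood in 77.0% of them, against 21.2% of 32790 other promoters, and TATAAA in 29.5%, against 6.30%. By type, CCAAT stood in 5 of 5 H1, 18 of 18 H2A, 15 of 16 H2B, 7 of 10 H3 and 2 of 12 H4 promoters. The longer ATTTGCAT stood in 6 promoters, 5 of them of H2B genes (9.84% of members, against 0.775% of the others). The promoters of Hist1h2ae and Hist1h1b are printed because these genes, both lower in GPH than in control Vim-high cells, were on opposite sides of 1 in Vim-high cells of G and PH. Hist1h2ae had ratios to control of 1.22 in G and 1.1 in PH there, and Hist1h1b 0.464 in G and 0.575 in PH. Capitals mark CCAAT or its complement ATTGG, and TATAAA.
Hist1h2ae: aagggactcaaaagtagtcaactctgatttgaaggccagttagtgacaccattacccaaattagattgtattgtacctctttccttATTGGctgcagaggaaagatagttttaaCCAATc
Hist1h1b: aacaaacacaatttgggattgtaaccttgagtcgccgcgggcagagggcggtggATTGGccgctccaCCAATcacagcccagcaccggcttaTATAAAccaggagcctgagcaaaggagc
The first spans chr13:23571221-23571340 and the second chr13:21780626-21780745, both on the minus strand. Both hold the CCAAT letters and only Hist1h1b holds TATAAA. A match of letters is a description and not a binding site.

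The libraries held 143298547 UMIs in GPH, 144152432 in G, 190110092 in PH and 158887422 in control. Over 20% of UMIs were mitochondrial in 41.0% of GPH barcodes, 15.6% of G, 12.7% of PH and 15.6% of control barcodes. After filtering, 4411 cells of GPH, 12449 of G, 13977 of PH and 10074 of control passed, and their median depth was 20103 UMIs in GPH, 4610 in G, 7862 in PH and 9635 in control. T cells (clusters 16, 17 and 18) numbered 3879 in G, 449 in PH and 429 in control, NK cells (cluster 15) 1105, 105 and 273, and macrophages (clusters 12 and 14) 2617, 377 and 272. GPH held 49 T cells, 11 NK cells and 51 macrophages, too few for a comparison. Vim-high cells numbered 1605 in GPH, 2149 in G, 10898 in PH and 8262 in control, and Krt19-high cells (cluster 22) 1873 in GPH, 1310 in G, 16 in PH and 1 in control. The T, NK and macrophage names rest on at least 9 of their listed markers. Krt19-high cells passed 6 of 8 ductal markers. The 8 Vim-high clusters (0 to 6 and 8) were taken by their Vim level, and cluster 6 also passed 5 of 8 fibroblast markers and cluster 0 passed 3. Cluster 6 held 1005 of the Vim-high cells of GPH, 408 of G, 182 of PH and 1637 of control, and cluster 8 held 100 of GPH, 177 of G, 3649 of PH and 213 of control. Cluster 5 held 102 of GPH, 506 of G, 2172 of PH and 1384 of control. Between 17 and 79 barcodes were shared by any 2 libraries.

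In the cells kept, the 67 genes gave 465535 UMIs, and a single H2A gene gave 43.6% of them. Hist1h2ap had 203044 UMIs, followed by the H2A gene Hist1h2ae with 62082, the H2B gene Hist1h2bc with 31910, and the linker histone genes Hist1h1c with 21402, Hist1h1e with 19512 and Hist1h1b with 18554. H2A genes took 63.3% of histone UMIs, H1 14.0%, H2B 10.8%, H4 7.10% and H3 4.80%. At the low end 8 members had fewer than 100 UMIs, and Hist1h2aa and Hist1h2ba, a pair known from the germ line, had none. These counts are not scaled to transcript length and follow capture, so they do not rank the genes by how much mRNA a cell holds. Shared sequence limits the identity of a member. In the last 300 bases of its transcript, no 60-base window of Hist1h2ap, Hist2h2aa1 or Hist1h1e was unique to that gene, whereas all windows of Hist1h2bc, Hist1h1c and Hist1h1b were. Hist1h1e shared its windows with the H2B gene Hist1h2be, whose annotated span overlaps its own on the same strand, and with an unnamed gene. Windows of Hist1h2ap were shared mainly with other H2A genes. UMIs of Hist1h2ap may thus stand for several H2A genes.

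The histone genes were lower in GPH tumour cells than in the other libraries compared, and higher in T cells of PH and G than in those of control. In Vim-high cells they summed to 326 CPM in GPH, 938 CPM in G, 930 CPM in PH and 803 CPM in control. In Krt19-high cells they summed to 311 CPM in GPH and 665 CPM in G. In T cells they reached 5037 CPM in G, 4481 CPM in PH and 2348 CPM in control. NK cells had 2728 CPM in G, 2305 CPM in PH and 2172 CPM in control, and macrophages had 967 CPM in G, 1282 CPM in PH and 959 CPM in control. The T cell levels were thus above those of tumour cells in every library compared.

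**Figure D1:**
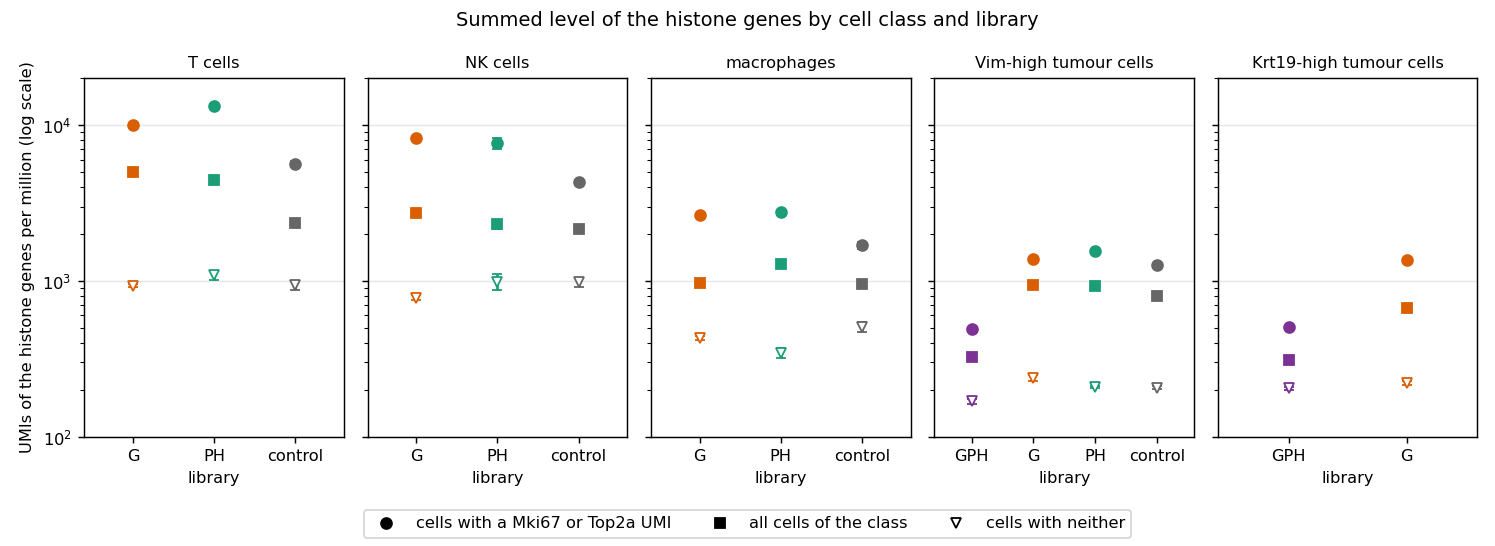
Summed CPM of the histone genes (log scale) in 5 cell classes, by library, for cells with a Mki67 or Top2a UMI (filled circles), all cells (squares) and cells with neither (open triangles). Bars are exact 95% intervals that cover counting error only, and groups with fewer than 100 cells are left out. GPH tumour cells with a Mki67 or Top2a UMI sit at 493 and 502 CPM, below the other libraries.

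The split by Mki67 and Top2a separated most of the histone RNA. T cells with such a UMI had 9990 CPM in G, 13238 CPM in PH and 5634 CPM in control, against 930, 1087 and 938 CPM in T cells with neither. Vim-high cells with such a UMI had 493 CPM in GPH, 1385 CPM in G, 1564 CPM in PH and 1260 CPM in control, against 168, 238, 209 and 206 CPM without. The libraries were thus closer in cells without these UMIs than in cells with them. This depended on how depth was handled. The split was also made after thinning each cell to 2000 UMIs, with shallower cells left out. The ratio to control in cells without these UMIs was then 2.35 for T cells of G, against 0.992 as first split. For Vim-high cells of GPH it was 0.614, against 0.815. Among T cells 599 of 3879 in G, 187 of 449 in PH and 137 of 429 in control were left out. The change thus joins thinning with the loss of shallow cells. Deeper cells show such a UMI more readily. After thinning, the share of Vim-high cells with a Mki67 or Top2a UMI was 10.2% in GPH, 21.1% in G, 17.5% in PH and 16.8% in control (unthinned 33.1%, 38.9%, 36.9% and 39.2%). For T cells it was 19.0% in G, 17.2% in PH and 20.9% in control (unthinned 25.5%, 16.5% and 22.8%). The unthinned shares are of all cells, the thinned ones of cells with at least 2000 UMIs. In neutrophils of G, which do not divide, 1.80% of 834 cells had such a UMI at a median depth of 982.5 UMIs.

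In Vim-high tumour cells the histone genes were 0.406 times as abundant in GPH as in control (95% interval 0.398 to 0.415, counting error only). Hist1h2ap stood at 88.6 CPM in GPH, 459 CPM in G, 423 CPM in PH and 299 CPM in control. Hist1h2ae stood at 30.7 CPM in GPH, 152 CPM in G, 136 CPM in PH and 124 CPM in control. GPH was lowest for both, by 3.37-fold and 4.03-fold against control. The linker histone gene Hist1h1b had 13.4 CPM in GPH, 24.7 CPM in G, 30.7 CPM in PH and 53.3 CPM in control, which made it 3.98-fold lower in GPH than in control. Hist1h1e, another linker histone gene, had 11.0 CPM in GPH, 32.3 CPM in G, 36.4 CPM in PH and 42.8 CPM in control. Over the class the H2B gene Hist1h2bc went the other way, with 65.4 CPM in GPH, 48.4 CPM in G, 50.4 CPM in PH and 41.9 CPM in control, a ratio of 1.56 against control (1.48 to 1.65). By cluster it was lower in GPH than in control in clusters 0, 1, 3 and 4, and higher in clusters 2, 5, 6 and 8. Cluster 6, which held most Vim-high cells of GPH, had 75.0 CPM of it in GPH and 71.0 CPM in control. Cluster 4 had 22.0 CPM in GPH and 39.4 CPM in control. The part of the cluster mix in the ratio of 1.56 was not tested.

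The filter on low values took the 2 libraries of a comparison together, so the larger weighed most and a gene could pass through 1 alone. Genes with at least 10 CPM and at least 20 UMIs summed over the 2 libraries were treated as measured. In Vim-high cells 11 members met this for GPH against control, 9 were at least 1.5-fold lower (8.62% of all measured genes were) and 1, Hist1h2bc, was at least 1.5-fold higher (20% of all measured genes). The median log2 ratio of these members was -1.22, beside 0.16 for all 6580 measured genes. The same held against the other libraries: 7 of 10 measured members were lower in GPH than in G (6.01% of all genes) and 8 of 11 lower than in PH (6.84%), with none higher (21.4% and 16.4%). These comparisons share the GPH library and so are not independent of each other. The summed ratio was 0.348 against G and 0.350 against PH.

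In cells with a Mki67 or Top2a UMI the ratio of GPH to control was 0.391 (0.382 to 0.401), and in those without it was 0.815. There Hist1h2ap had 166 CPM in GPH, 729 CPM in G, 779 CPM in PH and 514 CPM in control. In cells without these UMIs Hist1h2ap had 15.4 CPM in GPH, 37.5 CPM in G, 18.6 CPM in PH and 18.6 CPM in control. With the CPM of cells with and without these UMIs mixed by the same cell share in both libraries, the ratio of GPH to control was 0.487. This mix also weights by cells in place of UMIs, so it does not isolate the share. Cluster 5, led by the mitosis genes Cenpf, Ube2c and Top2a, had 942 CPM of histone genes in GPH, 1542 CPM in G, 2433 CPM in PH and 2045 CPM in control among such cells. Cluster 6, which held most Vim-high cells of GPH, had 198 CPM in GPH, 450.1 CPM in G, 852 CPM in PH and 323 CPM in control. GPH was above control in cluster 2, with 674 CPM in 19 GPH cells and 410 CPM in control, and in cluster 8, with 478 CPM in GPH and 376 CPM in control. Cluster 4 had 806 CPM in GPH, 1767 CPM in G, 1596 CPM in PH and 958 CPM in control among such cells. Over all cells of cluster 4 the histone genes had 639 CPM in GPH and 663 CPM in control. Cluster 5 gave 53816 of the 96385 histone UMIs of control Vim-high cells and 3542 of the 9352 of GPH. The clusters thus differed, and the mix of clusters moved with the library. The part of this mix in the ratio of GPH to control was not tested.

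Krt19-high tumour cells, present in number only in the GPH and G libraries, gave a ratio of GPH to G of 0.467 (0.460 to 0.475). Hist1h2ap carried most of it, with 62.4 CPM in GPH and 349 CPM in G, or 5.58-fold lower (5.41 to 5.76). Hist1h2ae had 23.8 CPM in GPH and 76.2 CPM in G, and the H2A gene Hist2h2aa1 had 11.6 CPM in GPH and 38.1 CPM in G. Hist1h2bc was again higher, with 98.6 CPM in GPH and 63.8 CPM in G, a ratio of 1.54 (1.48 to 1.61). Hist1h1c was close, with 43.2 CPM in GPH and 38.4 CPM in G. Of 6 measured members 4 were at least 1.5-fold lower (2.96% of all genes) and 1 higher (19.4%), with a median log2 ratio of -1.16 beside 0.26 for all measured genes. Without Hist1h2ap the summed ratio was 0.784, and without Hist1h2ap and Hist1h2ae it was 0.933, so these H2A genes made up most of the net difference in this class. The remainder holds Hist1h2bc, which was higher, beside Hist2h2aa1 and Hist1h1e, lower at ratios of 0.304 and 0.640. A remainder near 1 thus does not mean that its members were level. Malat1 had 8610 CPM in GPH and 2903 CPM in G in the same cells, Gm42418 had 6209 CPM in GPH and 1625 CPM in G, and Neat1 had 805 CPM in GPH and 253 CPM in G. The part of these RNAs in the histone difference was not tested.

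Other features also differed between the libraries. In Vim-high cells Malat1, a nuclear RNA without an ordinary poly(A) tail, had 38586 CPM in GPH, 12769 CPM in G, 12336 CPM in PH and 23241 CPM in control. Gm42418, which overlaps ribosomal RNA, had 10564 CPM in GPH, 5032 CPM in G, 4763 CPM in PH and 5290 CPM in control. Malat1 and Gm42418 were thus highest in GPH, where the histone genes were lowest. With the UMIs of mitochondrial genes, Malat1, Gm42418, AY036118 and the histone genes taken out of the total, the ratio of GPH to control was 0.420. Y-linked genes summed to 12.6 CPM in GPH, 8.57 CPM in G, 0.469 CPM in PH and 0.0749 CPM in control Vim-high cells. The Y-linked genes were thus higher in both GPH and G than in PH and control. The part of these features, of the mitochondrial share and of the depth in the histone differences of GPH and of G was not tested.

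In T cells the histone genes were 1.91 times as abundant in PH as in control (1.83 to 2.0) and 2.15 times as abundant in G (2.07 to 2.23). Hist1h2ap had 2793 CPM in G, 2182 CPM in PH and 789 CPM in control. Hist1h2ae had 673 CPM in G, 546 CPM in PH and 247 CPM in control, and the H3 gene Hist1h3c had 84.2 CPM in G, 82.4 CPM in PH and 29.8 CPM in control. The clusters took different shares of the class: cluster 17, where histone levels were highest, held 1243 T cells of G, 44 of PH and 53 of control, and cluster 16 held 1607 of G, 322 of PH and 310 of control. Within cluster 16 the histone genes had 4742 CPM in G, 4491 CPM in PH and 2094 CPM in control. Within cluster 17 they had 7504 CPM in G, 6826 CPM in PH and 5690 CPM in control, a smaller gap. For Hist1h2ap, Hist1h2ae and Hist1h3c control was lowest over the class, by ratios of 3.54, 2.72 and 2.83 for G and 2.76, 2.21 and 2.77 for PH. The H4 gene Hist1h4h had 77.2 CPM in G, 93.2 CPM in PH and 39.2 CPM in control. The highest ratio belonged to the H2A gene Hist1h2ab, at 5.97 in G (3.01 to 13.9) and 7.43 in PH (3.54 to 18.0), where control had 8 UMIs.

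Of 28 members measured for PH against control 13 were at least 1.5-fold higher (9.99% of all genes) and 0 lower (12.8%), with a median log2 ratio of 0.53 beside -0.04 for all genes. For G against control 18 of 30 were higher (12.5%) and 2 lower (11.0%), with a median of 0.73 beside -0.01. Both lower members in G were linker histone genes, Hist1h1d and Hist1h1c, and Hist1h1c had 101 CPM in G, 159 CPM in PH and 194 CPM in control. The rest of the linker histone genes that were abundant differed little: Hist1h1b had 208 CPM in G, 232 CPM in PH and 199 CPM in control. The 2 comparisons share the control library. Malat1 moved the other way in T cells, with 9048 CPM in G, 14761 CPM in PH and 23033 CPM in control, and its part in the histone difference was not tested.

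T cells with a Mki67 or Top2a UMI gave a ratio of 1.77 for G (1.70 to 1.85) and 2.35 for PH (2.23 to 2.47), and those without gave 0.992 and 1.16. The PH value rests on 74 cells and the control value on 98, and their median depth was 3319 UMIs in both, against 6882 UMIs in the 989 such cells of G. Among them Hist1h1b had 439 CPM in G, 765 CPM in PH and 530 CPM in control, so in G this gene was on the other side of control from Hist1h2ap, which had 5791 CPM in G, 6908 CPM in PH and 2274 CPM in control. In cluster 16 such cells had 8382 CPM of histone genes in G, 13182 CPM in PH and 4719 CPM in control, and in cluster 17 they had 12983 CPM in G and 10541 CPM in the 19 such cells of control. With no doublets removed the ratio for G was 4.27 in cells with a Mki67 or Top2a UMI, and with the split made after thinning it was 2.35 in cells without. Without Hist1h2ap and Hist1h2ae the ratio over all T cells was 1.20 for G and 1.34 for PH.

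**Figure D2:**
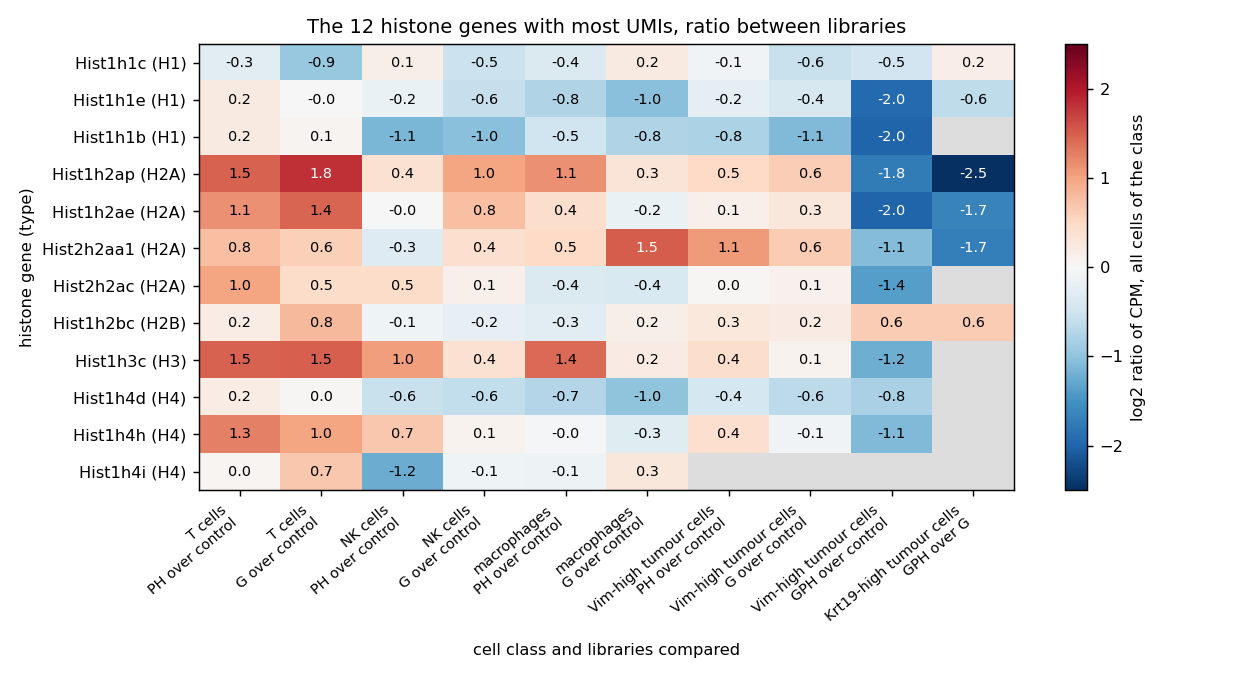
Log2 ratio of CPM between libraries for the 12 histone genes with most UMIs (rows, by type) in 10 comparisons (columns), all cells of each class. Red is higher in the library named first, blue is lower, grey fields were not measured, and the number in a field is the log2 ratio. Hist1h2ap and Hist1h2ae are red in T cells and blue in GPH tumour cells, and Hist1h2bc is red in the GPH columns.

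NK cells and macrophages showed smaller differences over all cells. In NK cells the summed ratio was 1.26 for G (1.21 to 1.30) and 1.06 for PH (0.984 to 1.14). Hist1h2ap had 1409 CPM in G, 922 CPM in PH and 710 CPM in control NK cells, and Hist1h1b had 87.2 CPM in G, 81.6 CPM in PH and 180.3 CPM in control. The H2A gene was thus highest in G and the linker histone gene highest in control. For PH 8 of 26 measured members were at least 1.5-fold higher (14.1% of all genes) and 4 lower (23.0%), and for G 4 of 24 were higher (14.1%) and 5 lower (11.1%). The extremes were Hist1h2ab, at a ratio of 4.66 in PH and 2.35 in G, and at the low end Hist1h4i in PH, at 0.424 from 8 UMIs, and Hist1h1d in G, at 0.476. In control NK cells Hist1h2ab had 6.22 CPM, again under the 10 CPM minimum. NK cells with a Mki67 or Top2a UMI had 8261 CPM in G, 7655 CPM in PH and 4306 CPM in control, where PH had 15 such cells. Their share after thinning was 9.76% in G, 11.2% in PH and 19.6% in control. The share was thus lowest in the treated libraries, and the histone CPM within these cells lowest in control. Without Hist1h2ap and Hist1h2ae the ratio over all NK cells was 0.772 for G.

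In macrophages the summed ratio was 1.34 for PH (1.27 to 1.41) and 1.01 for G (0.963 to 1.05). Different clusters filled the class: 2470 of the G macrophages lay in cluster 14, and 310 of PH and 199 of control in cluster 12. Within cluster 14 the histone genes had 977 CPM in G, 1124 CPM in PH and 606 CPM in control. Within cluster 12 they had 553 CPM in G, 1306 CPM in PH and 1053 CPM in control. The ratio for G over the class thus joins clusters in which G lay on opposite sides of control. Hist1h2ap had 376 CPM in G, 662 CPM in PH and 299 CPM in control, and Hist2h2aa1 had 51.6 CPM in G, 25.5 CPM in PH and 18.1 CPM in control. Hist2h2aa1 had the highest ratio for G, at 2.85 (2.08 to 4.0), and Hist1h3c the highest for PH, at 2.65 (1.65 to 4.46). In control macrophages Hist1h3c had 9.71 CPM, under the 10 CPM minimum. The lowest were Hist1h1e for G, with 37.9 CPM in G and 78.1 CPM in control, and Hist3h2a for PH, with 5.76 CPM in PH and 17.7 CPM in control. For PH 3 of 15 measured members were higher (14.9% of all genes) and 3 lower (11.0%), and for G 1 of 13 was higher (18.3%) and 3 lower (17.5%), shares near those of all genes. Cells with a Mki67 or Top2a UMI had 2658 CPM in G, 2761 CPM in PH and 1693 CPM in control. With no doublets removed the ratio for G was 2.11 over all macrophages and 3.90 in those cells. For PH the ratio was 1.63 in those cells and 0.688 in the others, but 2.87 and 1.12 with the split made after thinning, and 1.15 in the others when at least 2 such UMIs were asked for. Without Hist1h2ap and Hist1h2ae it was 0.844 over all macrophages.

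Vim-high tumour cells of PH and G differed little from control in the sum, with ratios of 1.16 (1.15 to 1.17) and 1.17 (1.15 to 1.18), and without Hist1h2ap and Hist1h2ae both ratios were under 1, at 0.977 and 0.860. Within the sum some genes differed in opposite directions. For PH 1 of 11 measured members was at least 1.5-fold higher (7.02% of all genes), Hist2h2aa1, and 1 lower (7.64%), Hist1h1b. For G 2 of 11 were higher (4.33%), Hist2h2aa1 and Hist1h2ap, and 2 lower (6.83%), Hist1h1b and the H4 gene Hist1h4d. Hist2h2aa1 had 28.0 CPM in G, 37.8 CPM in PH and 18.1 CPM in control, and Hist1h4d had 18.9 CPM in G, 21.9 CPM in PH and 29.6 CPM in control. The Hist2h2aa1 difference was larger in cells with no Mki67 or Top2a UMI, with 35.2 CPM in G, 38.0 CPM in PH and 11.0 CPM in control, ratios of 3.19 (2.80 to 3.64) and 3.46 (3.15 to 3.79). GPH had 7.10 CPM of it in those cells, and the copies of this gene cannot be told apart.

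Few members reached the CPM minimum, so all with at least 20 UMIs in the 2 libraries together were also counted. In Vim-high cells 46 of 58 were then at least 1.5-fold lower in GPH than in control (13.3% of all genes) and 3 higher (25.7%), namely Hist1h2bc and the H3 genes Hist2h3c1 and Hist2h3c2. Against G 41 of 50 were lower (12%) and 1 higher (23.6%), and against PH 41 of 55 were lower (14.9%) and 0 higher (23.8%). In Krt19-high cells 22 of 50 were lower in GPH than in G (10.3%) and 7 higher (22.4%). In T cells 30 of 53 were higher in G than in control (19.8%) and 6 lower (16.9%), and 15 of 32 were higher in PH (10.9%) and 1 lower (13.8%). For Vim-high cells of G 8 of 58 were higher (16.8%) and 12 lower (11.0%), and for those of PH 6 of 59 were higher (16.2%) and 17 lower (12.7%). In NK cells 8 of 42 were higher in G (17.3%) and 12 lower (15.0%), and for PH 8 of 26 were again higher (14.1%) and 4 lower (23.0%). In macrophages 4 of 42 were higher in G (21.2%) and 15 lower (23.0%), and 6 of 26 were higher in PH (17.9%) and 5 lower (13.1%). These counts include the members already counted above the CPM minimum. With a minimum of 20 CPM, 5 of 7 members were lower in Vim-high cells of GPH than in control (10.2%) and 3 of 5 lower than in G (6.39%). The members higher under that minimum were 1 of 7 in Vim-high cells of G (3.54%), 1 of 10 in macrophages of PH (13.5%), 2 of 15 in NK cells of G (11.9%) and 4 of 18 in NK cells of PH (11.4%).

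By histone type, H2A and H1 differed in every class. The ratio of G to control was 3.14 for H2A and 0.851 for H1 in T cells, 1.84 and 0.602 in NK cells, 1.18 and 0.755 in macrophages, and 1.41 and 0.606 in Vim-high cells. The ratio of PH to control was 2.54 for H2A and 1.05 for H1 in T cells, 1.22 and 0.813 in NK cells, 1.83 and 0.708 in macrophages, and 1.32 and 0.749 in Vim-high cells. The ratio was thus higher for H2A than for H1 in all 8 comparisons, which share the control library and, by 4, a treated one. H3 lay between 1.01 and 2.23 and H4 between 0.791 and 1.32 in them. In GPH the types were in another order. In Vim-high cells H2A stood at 144 CPM in GPH and 475 CPM in control, a ratio of 0.302 (0.293 to 0.312), and H1 at 51.3 CPM in GPH and 143 CPM in control, a ratio of 0.360. The H2B sum was level there, with 78.7 CPM in GPH and 79.5 CPM in control, a ratio of 0.990 (0.945 to 1.04). Hist1h2bc alone had 65.4 CPM of it in GPH and 41.9 CPM in control, so the other H2B genes together were lower in GPH. In Krt19-high cells the H2B ratio of GPH to G was 1.41 (1.36 to 1.47), with Hist1h2bc at 98.6 CPM in GPH and 63.8 CPM in G. The H2B ratios thus rest largely on Hist1h2bc.

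**Figure D3:**
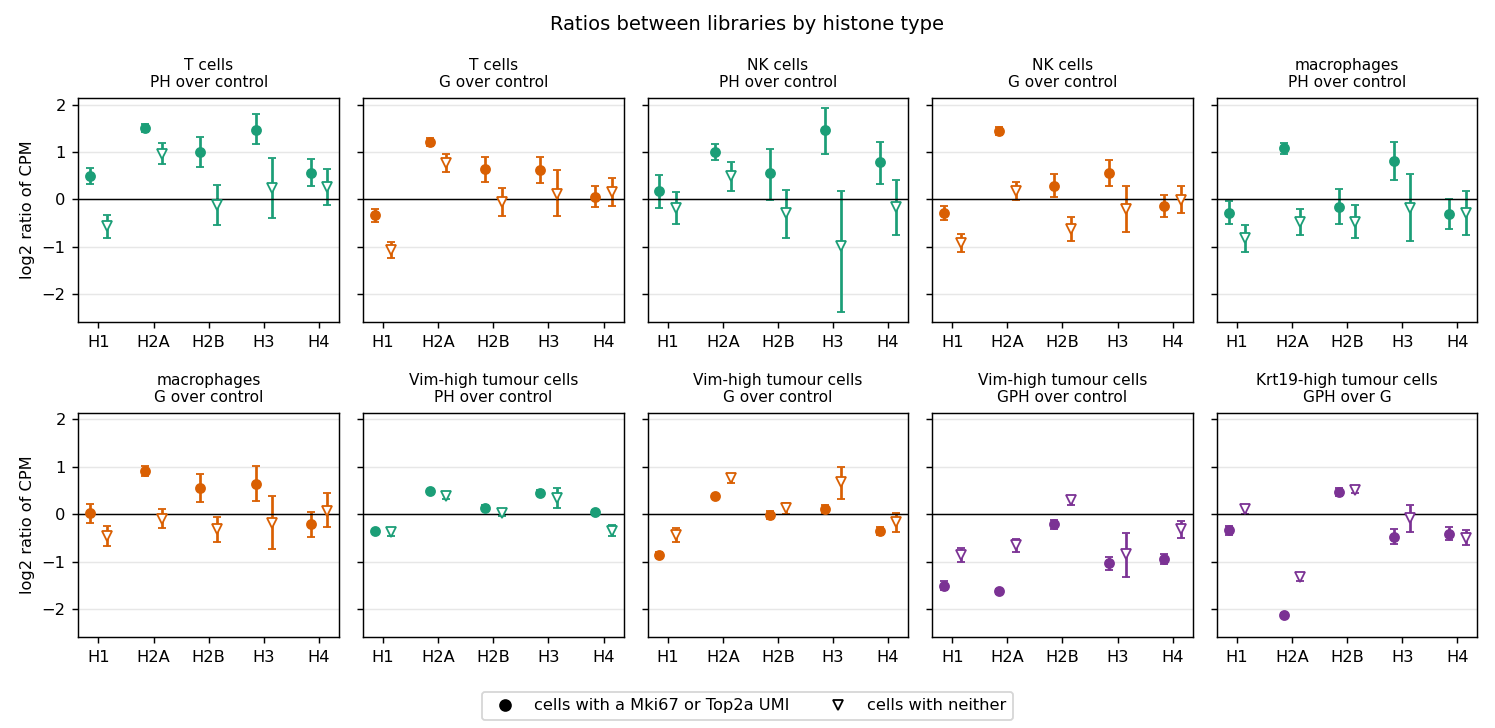
Log2 ratio of summed CPM between libraries for the H1, H2A, H2B, H3 and H4 genes in 10 comparisons, for cells with a Mki67 or Top2a UMI (filled circles) and with neither (open triangles). Bars are exact 95% intervals for counting error only. H2A lies above H1 in the comparisons of G and PH with control. H2B, of which Hist1h2bc gave the larger part over all cells, lies highest in those of GPH.

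The genes were also grouped by their annotated mRNA end. In T cells, genes whose transcript ends at the stem-loop had a ratio of 3.22 for G and 2.64 for PH, genes whose transcript runs on had 1.37 and 1.39, and genes without a match had 1.18 and 1.22. In Vim-high cells of GPH against control the ratios were 0.323 at the stem-loop, 0.385 for those that run on and 0.696 for those without a match. In Krt19-high cells of GPH against G they were 0.218, 0.670 and 1.32. Hist1h2ap carries most UMIs of the genes ending at the stem-loop, so this sorting is largely that of 1 gene. Of the genes without a match, Hist1h2bc with 31910 UMIs and Hist1h1b with 18554 gave most over all kept cells. In Vim-high cells of GPH the first was higher than in control and the second lower, so that group joins opposite directions. The 5 genes known for polyadenylated mRNA summed to 98.2 CPM in GPH, 79.5 CPM in G, 90.6 CPM in PH and 90.0 CPM in control Vim-high cells, a ratio of GPH to control of 1.09 (1.05 to 1.14). In Krt19-high cells they had 151 CPM in GPH and 109 CPM in G, a ratio of 1.38 (1.34 to 1.43). Hist1h2bc and Hist1h1c gave most of these UMIs. Hist3h2a had 7.25 CPM in GPH, 4.27 CPM in G, 5.52 CPM in PH and 10.1 CPM in control Vim-high cells, and Hist4h4, a single H4 gene on chromosome 6, had 1.81 CPM in GPH, 3.85 CPM in G, 3.04 CPM in PH and 4.60 CPM in control. Hist2h2be stayed under 1 CPM, with 0.418 CPM in GPH, 0.699 CPM in G, 0.8 CPM in PH and 0.616 CPM in control.

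Members differed in how closely they followed Mki67 and Top2a. In Vim-high cells Hist1h2ap was 10.8 times as abundant in cells with such a UMI as in cells without in GPH, 19.4 times in G, 41.8 times in PH and 27.6 times in control. In T cells the ratio was 18.9 in G, 19.7 in PH and 14.9 in control. Hist1h1b ran higher still in Vim-high cells, at 57.2 in GPH, 24.5 in G, 69.2 in PH and 32.0 in control. The 2 most abundant polyadenylated members were lower in the cells with such a UMI in Vim-high cells. Hist1h1c had ratios of 0.786 in GPH, 0.661 in G, 0.961 in PH and 0.786 in control, and Hist1h2bc had 0.761 in GPH, 0.678 in G, 0.747 in PH and 0.557 in control. In T cells they were higher, at 1.21 in G, 1.65 in PH and 1.12 in control for Hist1h1c and 2.16 in G, 1.88 in PH and 1.51 in control for Hist1h2bc. Hist4h4 was also higher in Vim-high cells with such a UMI, at 1.15 in GPH, 2.42 in G, 1.42 in PH and 1.44 in control, and in Krt19-high cells, at 3.53 in GPH and 1.56 in G. In Vim-high cells Hist2h2aa1 was close to 1 in PH, at 0.988, under it in G, at 0.667, and above it in GPH and control, at 1.42 and 2.14. Over all members the ratio was 2.93 in GPH, 5.83 in G, 7.49 in PH and 6.11 in control. Free RNA can put UMIs into cells that do not express a gene. The 819 neutrophils of G with no Mki67 or Top2a UMI had 111 CPM of Hist1h2ap (91.6 to 133), against 306 CPM in T cells, 214 CPM in NK cells, 57.9 CPM in macrophages and 37.5 CPM in Vim-high cells of G with neither. The last 2 are below the neutrophil level in CPM, but the classes differ in depth. The median over all their cells in G was 982.5 UMIs in neutrophils, 4948 UMIs in macrophages and 9893 UMIs in Vim-high cells. The same number of free UMIs gives a higher CPM in a shallower cell. This comparison therefore cannot show whether the macrophage and Vim-high levels are background.

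**Figure D4:**
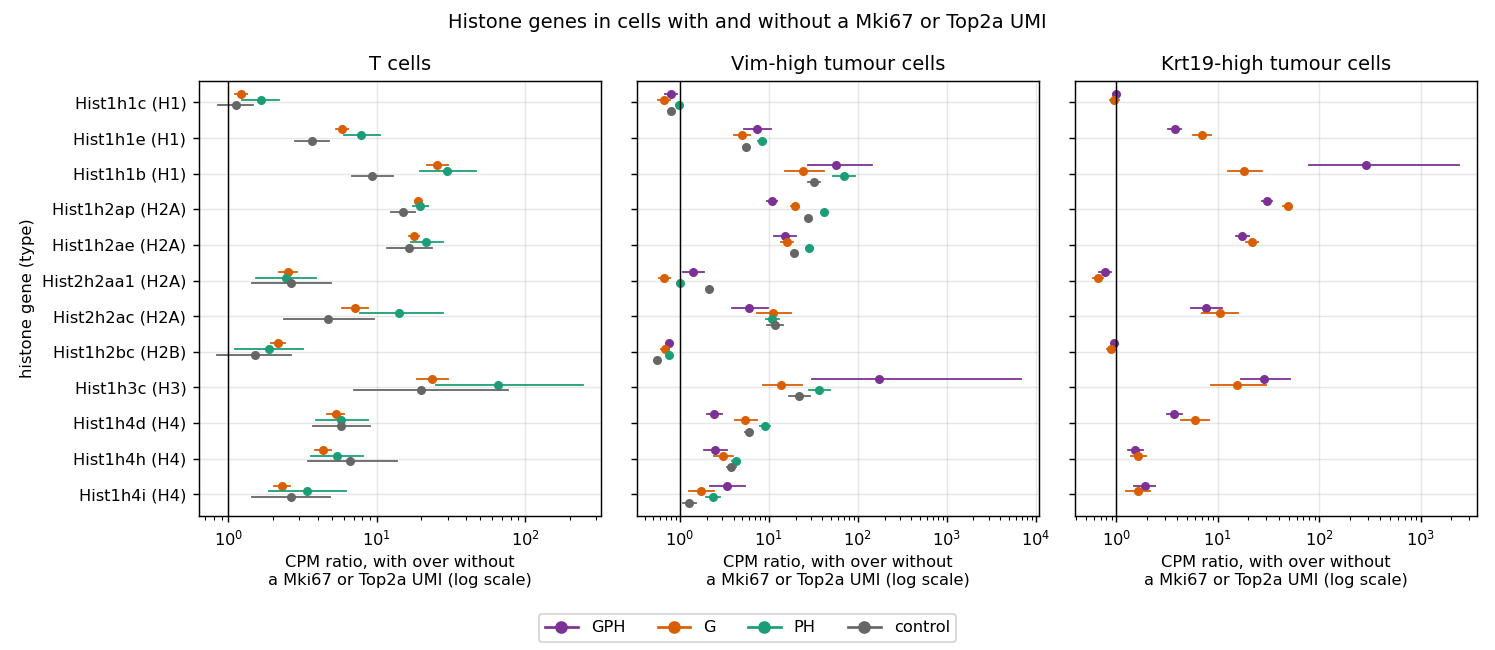
Ratio of CPM in cells with a Mki67 or Top2a UMI over cells with neither (log scale) for the 12 histone genes with most UMIs, in T cells, Vim-high and Krt19-high tumour cells. Points are libraries, lines exact 95% intervals for counting error only, and libraries with fewer than 100 cells in a class are left out. Hist1h2ap, Hist1h2ae, Hist1h1b and Hist1h3c lie far above 1, and Hist1h1c and Hist1h2bc between 0.557 and 2.16.

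Other genes of DNA replication differed by less between GPH and control than the histone genes. A list of 30 replication genes (helicase subunits such as Mcm2, polymerase parts such as Pola1, nucleotide makers such as Rrm2) stood, in Vim-high cells with a Mki67 or Top2a UMI, at 1027 CPM in GPH, 1625 CPM in G, 1465 CPM in PH and 1381 CPM in control. Of 25 measured in all Vim-high cells, 6 were at least 1.5-fold lower in GPH than in control (8.62% of all genes) and 1 higher (20%), a median log2 ratio of -0.40, beside -1.22 for the histone members. In T cells, 20 of 29 replication genes were at least 1.5-fold higher in G than in control (12.5% of all genes) and 0 lower (11.0%). For PH 4 of 26 were higher (9.99%) and 1 lower (12.8%), near the shares of all genes. In T cells with a Mki67 or Top2a UMI the list stood at 2765 CPM in G, 2551 CPM in PH and 1838 CPM in control, and in such macrophages at 1222 CPM in G, 1573 CPM in PH and 1597 CPM in control. Over all macrophages 13 of 18 replication genes were at least 1.5-fold lower in G than in control (17.5% of all genes) and 0 higher (18.3%), beside a histone ratio of 1.01.

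A list of 19 mitosis genes stood, in the same Vim-high cells, at 1123 CPM in GPH, 2270 CPM in G, 1617 CPM in PH and 1579 CPM in control. In Krt19-high cells it was close, at 1068 CPM in GPH and 1071 CPM in G, while the histone genes stood at 502 CPM in GPH and 1360 CPM in G. Cells with a Mki67 or Top2a UMI were also parted by whether their replication UMIs at least matched their mitosis UMIs, a split chosen after the data were seen. In Vim-high cells the replication-led cells had 351 CPM of histone genes in GPH and 1063 CPM in control, and the mitosis-led cells 820 CPM in GPH and 1658 CPM in control. Both kinds were lower in GPH, by 3.03-fold and 2.02-fold. In T cells the replication-led cells had 10484 CPM in G and 3656 CPM in control, and the mitosis-led cells 8380 CPM in G and 11673 CPM in control, the last from 22 cells.

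**Figure D5:**
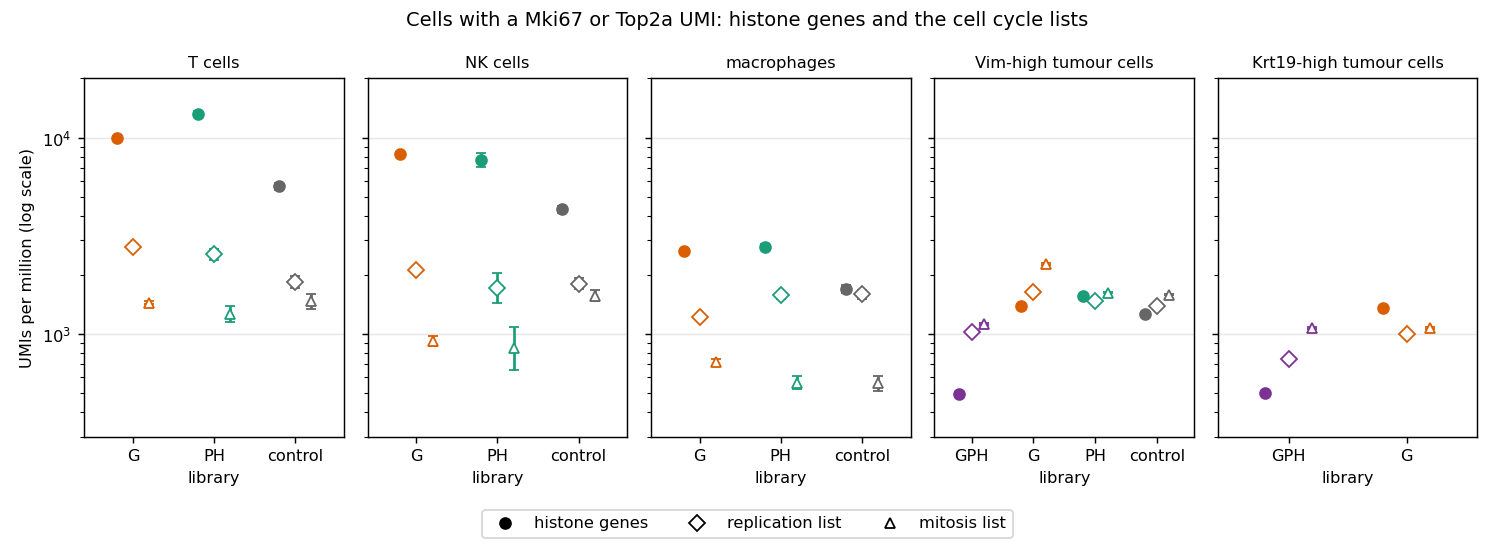
CPM (log scale) of the histone genes (filled circles), the replication list (open diamonds) and the mitosis list (open triangles) in cells with a Mki67 or Top2a UMI, by class and library. Bars are exact 95% intervals for counting error only. In GPH tumour cells the histone genes lie below both lists, at 493 and 502 CPM, as they also do in Vim-high cells of G and of control. In T cells they lie above both.

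Genes that make, end and handle histone mRNA and protein differed less. Of 18 listed symbols of histone mRNA processing and control, 16 were among the features and 12 were measured in Vim-high cells. Of these, 0 reached 1.5-fold between GPH and control in either direction. Slbp, which encodes the stem-loop binding protein, had 61.3 CPM in GPH, 65.5 CPM in G, 48.3 CPM in PH and 54.0 CPM in control Vim-high cells. In Krt19-high cells Slbp had 22.5 CPM in GPH and 32.8 CPM in G, and 2 of 12 genes of the list were at least 1.5-fold higher, a share below the 19.4% of all genes. In T cells Slbp had 151 CPM in G, 154 CPM in PH and 100.3 CPM in control, and 1 of 13 listed genes was at least 1.5-fold higher in G (12.5% of all genes) and 3 of 13 in PH (9.99%). Of the histone chaperones, which carry new histones to DNA, 1 of 9 was lower in Vim-high cells of GPH than in control (8.62% of all genes), and 3 of 10, Asf1b, Nap1l1 and Chaf1a, were higher in T cells of G (12.5%).

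Replacement histones are polyadenylated and put into chromatin outside S phase as well. Of 10 measured in Vim-high cells 4 were at least 1.5-fold lower in GPH than in control (8.62% of all genes), Cenpa, H1fx, H2afx and H2afv, 0 were higher (20%), and the other 6 lay between. H2afz, which is often high in dividing cells, had 579 CPM in GPH, 1290 CPM in G, 914 CPM in PH and 860 CPM in control. In Krt19-high cells H2afz had 566 CPM in GPH and 974 CPM in G, a ratio of 0.581 (0.574 to 0.589). The summed replacement list had a ratio of 0.731 for GPH against control in Vim-high cells and 0.693 for GPH against G in Krt19-high cells, nearer to 1 than the 0.406 and 0.467 of the histone genes.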

How the data were processed

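For each of 4 libraries the authors deposited UMI counts by gene and barcode that are not normalized. Cell Ranger 6.1 and mm10 are given per the submitters' processing notes. Cell Ranger 7.0.1 stands in the matrices, per the file headers. The annotation is not given in the sources used here. Cells with at least 500 UMIs, at least 300 genes and at most 20% mitochondrial UMIs were kept. Scrublet in scanpy 1.11.5 called 7, 0, 1 and 0 doublets in GPH, G, PH and control, too few to be useful, so the highest scores were removed at 0.8% per 1000 cells. This took out 168, 1573, 2056 and 977 barcodes. The libraries were clustered together by the Leiden method at a resolution of 1.0, from a graph of 15 neighbours over 30 components of 2000 variable genes, with the histone genes left out. Further tools were matplotlib 3.10.9, anndata 0.12.19, igraph 0.11.9, pandas 2.3.3, scipy 1.17.1, scikit-learn 1.9.0, numpy 2.4.6 and Python 3.11.15.

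Clusters were named from a marker list. UMIs were summed per class and library and divided by the class total (CPM). With 1 library per group no test was run. The 95% intervals are Clopper-Pearson for shares and, for ratios, exact binomial given the sum of both counts. They hold counting error alone. Classes with fewer than 100 cells in a library were not compared. This minimum was not applied to the cells with a Mki67 or Top2a UMI or to single clusters. Genes are named by rule: the 12 members with most UMIs, the 5 known for polyadenylated mRNA and, per comparison, the measured members with the highest and lowest ratio. Others are named from the comparison lists, or where 3 or fewer members were past 1.5-fold. The members, lists and tests were chosen with earlier results of these data known. Stem-loops and windows were read from GENCODE vM21 transcripts and promoters from RefSeq (GRCm38.p6). Intervals were tested on simulated data. Alternatives changed the clustering genes, the class rule, the split, the denominator, the weight of cells, the doublet and mitochondrial limits and the filter on low values. Leaving out Hist1h2ap or both it and Hist1h2ae, the split by replication and mitosis UMIs, and GPH against G and PH were added after the data were seen.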

Additional observations from a re-analysis of the deposited data

Results flagged for a closer look

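In cells with no Mki67 or Top2a UMI, the summed histone ratio to control lay on different sides of 1 in different classes, by more than counting error, but most of these values depended on the processing. For G it was 1.15 in Vim-high tumour cells (1.1 to 1.20), but 0.797 in NK cells (0.742 to 0.857) and 0.851 in macrophages (0.786 to 0.922). For PH it was 1.16 in T cells (1.06 to 1.27), but 0.688 in macrophages (0.619 to 0.765). With 1 library per group the difference between classes was not tested. Over 8 alternatives the G ratio ran from 1.1 to 1.40 in Vim-high cells, and it crossed 1 in NK cells, at 0.713 to 1.11, and in macrophages, at 0.685 to 1.06. The PH ratio crossed 1 in T cells, at 0.946 to 1.25, and in macrophages, at 0.593 to 1.15. The highest macrophage value for PH came with at least 2 Mki67 or Top2a UMIs asked for, and the lowest T cell value for PH with no doublets removed.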

How the results depend on the processing

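Summed histone ratios against control are given for T cells, NK cells, macrophages and Vim-high cells, and for GPH against G in Krt19-high cells. With each cell named by its own markers they were 2.27 (PH) and 2.30 (G) in T cells, 0.838 and 1.31 in NK cells, 1.42 and 0.835 in macrophages, 1.11 (G) and 0.391 (GPH) in Vim-high cells and 0.512 in Krt19-high cells. Taking the mean of each cell's CPM gave 1.42 (PH) and 1.59 (G) in T cells, 1.28 and 1.02 in NK cells, 1.14 and 0.760 in macrophages, 1.07 and 1.12 in Vim-high cells and 0.481 in Krt19-high cells. With no doublets removed they were 1.62 (PH) and 2.98 (G) in T cells, 1.15 and 1.17 in NK cells, 1.42 and 2.11 in macrophages, 1.15, 1.13 and 0.391 (GPH) in Vim-high cells and 0.394 in Krt19-high cells. Without Hist1h2ap they were 1.48 (PH) and 1.44 (G) in T cells, 0.946 and 0.903 in NK cells, 0.938 and 0.894 in macrophages, 1.01, 0.95 and 0.471 (GPH) in Vim-high cells and 0.784 in Krt19-high cells. Without Hist1h2ap and Hist1h2ae they were 1.34 (PH) and 1.20 (G) in T cells, 0.938 and 0.772 in NK cells, 0.844 and 0.895 in macrophages, 0.977, 0.860 and 0.544 (GPH) in Vim-high cells and 0.933 in Krt19-high cells. The CPM of cells with and without a Mki67 or Top2a UMI was also mixed by the same cell share in both libraries. The ratios were then 1.51 in T cells (G), 1.42 (PH) and 1.41 (G) in NK cells, 1.18 and 1.16 in macrophages, 1.19, 1.11 and 0.487 (GPH) in Vim-high cells and 0.526 in Krt19-high cells. This mix also weights by cells in place of UMIs, so it does not isolate the share. In Krt19-high cells the share was already 29.1% in GPH and 29.3% in G, beside a reported ratio of 0.467. Leaving out cells under 2000 UMIs gave 2.08 (PH) and 2.06 (G) in T cells. A mitochondrial limit of 10% gave, for PH, 0.975 in NK cells, 1.25 in macrophages and 1.18 in Vim-high cells, and 0.480 in Krt19-high cells. A total without mitochondrial genes, Malat1, Gm42418, AY036118 and the histone genes gave 0.420 for GPH in Vim-high cells.

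Of 100 such values 64 lay outside the counting interval of the reported one and 85 kept its direction. Both T cell ratios, GPH against control in Vim-high cells (0.391 to 0.544) and GPH against G in Krt19-high cells (0.394 to 0.933) kept their direction under the 10 alternatives run, while each of the other ratios crossed 1 under at least 1 of them, and the cause was not tested. Counts of members past 1.5-fold depended on the minimum level. Members lower in Vim-high cells of GPH than in control numbered 9, against 46 with no CPM minimum and 5 at 20 CPM, and members higher in T cells of G numbered 18, against 30 with no CPM minimum. No paired analysis was possible because each group is 1 library. Cell number limits the values that rest on 15 NK cells and 74 T cells of PH with a Mki67 or Top2a UMI.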
